A study of Mus musculus with 10 samples.

Results

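Immediate early genes are transcribed within minutes of a stimulus, without new protein synthesis, when growth factor receptors, stress kinases or calcium act on transcription factors that already sit at their promoters. The set described here held 10 genes: Fos, Fosb, Jun, Junb, Jund, Egr1, Egr3, Atf3, Ier2 and Dusp1. They were chosen by name, as every probe set of the deposited table whose platform annotation gives one of these symbols and no other. All 10 genes were found, with 11 probe sets among 41345, because Jund had 2. In epithelia these genes are induced by signalling through the EGF receptor and by wounding, and they are also known to rise when tissue is handled before it is fixed, so their level in a dissected sample can carry both.

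The measurements came from nasal respiratory epithelium, which lines the nose and carries motile cilia, taken from E16.5 mouse embryos. There were 5 triple knockout embryos (TKO), homozygous for loss of Mir34a (miR-34a-/-), of the Mir34b and Mir34c locus (miR-34b/c-/-) and of the Mir449 cluster (miR-449a/b/c-/-). Of these TKO 1 and TKO 3 carried the label female and the other 3 the label male. They were set against 5 wild-type embryos (WT), all labelled female except WT 3. After formalin fixation and paraffin embedding, the epithelium was dissected from sections by laser, and each embryo's RNA went onto 1 Affymetrix array. The sources used here give neither strain nor litter, do not limit the knockout alleles to a cell type, and do not record the time between death and fixation.

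The microRNAs removed in TKO embryos share a seed, the bases with which a microRNA pairs to its targets. The mature sequences of one member of each family are shown because that seed defines the knockout. They are from RefSeq (GRCm38.p6), 5′ to 3′, with the seed, bases 2 to 8, in capitals.
mmu-miR-34a-5p (chr4:150068473-150068494, plus strand): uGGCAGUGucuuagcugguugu
mmu-miR-449a-5p (chr13:113037549-113037570, plus strand): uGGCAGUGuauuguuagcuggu

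Values throughout are RMA values on the log2 scale, in which a difference of 1 is a 2-fold change. The Mir449c probe set read 3.16 to 4.39 in TKO and 6.80 to 7.56 in WT, and Mir449a read 5.06 to 5.76 in TKO and 6.86 to 7.56 in WT. The Mir449b probe set, of the same deleted cluster, stayed near the top of the scale and differed little, at 11.67 to 12.08 in TKO and 12.13 to 12.23 in WT. The Mir34b probe set read 5.40 to 5.57 in TKO and 5.61 to 5.98 in WT, and Mir34c read 3.03 to 3.26 in TKO and 3.20 to 3.39 in WT. The Mir34a probe set read 3.09 to 3.75 in TKO and 3.34 to 3.68 in WT, overlapping ranges near the bottom of the scale. Precision is limited by the number of arrays, 5 of each genotype, and p-values measure the spread between these embryos, which may have shared litters. All 13 epithelial markers with a probe set passed the filter on dim genes, a mean of at least 4.58. Of these 13 genes 1 rose, none fell and 12 did not pass, and the median change was -0.014. Of all 16635 genes tested 5.51% passed in either direction, so 1 call among 13 is a small count to set against that share. The gene that rose was Ccno, which is needed for the many basal bodies of multiciliated cells, with 9.98 to 10.23 in TKO and 9.16 to 9.65 in WT. Its change was 0.76 (1.70-fold higher, limma adjusted p = 0.000848), a call that held with each array left out and was lost in 1 of 24 alternatives, among females only (adjusted p = 0.0562). Among the 12 that did not pass, Foxj1, the master transcription factor of motile cilia, averaged 11.04 ± 0.09 in TKO and 10.86 ± 0.10 in WT (SD, n = 5 each, limma adjusted p = 0.0784). Grhl2, also among the 12, went the other way, with 8.33 to 8.41 in TKO and 8.47 to 8.63 in WT. The change of Grhl2 was -0.21 (limma adjusted p = 0.0702), and its arrays did not overlap between genotypes. The epithelial score, the mean of centred values over the list, lay between -0.08 and 0.09 in TKO and between -0.06 and 0.04 in WT. All 12 mesenchyme, 10 skeletal muscle and 8 neuronal and glial markers with a probe set passed it too, and their values are given after the gene lists.

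The bases just before the RefSeq transcription start are shown for 4 of the 10 genes. Stretches of 120 bases were searched for the core of the cyclic AMP response element, TGACG (on either strand, so TGACG or CGTCA), a sequence bound by proteins of the CREB and ATF families. The table of promoters used here has an entry for 7 of the 10 genes, Fos, Fosb, Jun, Junb, Jund, Atf3 and Dusp1. Of these 7, Fos, Junb, Fosb and Atf3 held the core in this window, while 11.7% of all 32851 promoters in the table held it. These 4 are shown for that reason, 5′ to 3′ on the gene's own strand (GRCm38.p6), with that core in capitals.
Fos (chr12:85473770-85473889, plus strand): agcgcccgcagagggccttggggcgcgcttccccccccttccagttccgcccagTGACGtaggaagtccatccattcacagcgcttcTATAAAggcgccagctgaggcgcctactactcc
Junb (chr8:84978749-84978868, minus strand): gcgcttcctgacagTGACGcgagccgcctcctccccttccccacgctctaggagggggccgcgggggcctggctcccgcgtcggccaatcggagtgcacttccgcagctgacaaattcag
Fosb (chr7:19310046-19310165, minus strand): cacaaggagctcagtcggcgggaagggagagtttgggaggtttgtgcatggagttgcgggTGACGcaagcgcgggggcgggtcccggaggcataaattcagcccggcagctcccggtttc
Atf3 (chr1:191183334-191183453, minus strand): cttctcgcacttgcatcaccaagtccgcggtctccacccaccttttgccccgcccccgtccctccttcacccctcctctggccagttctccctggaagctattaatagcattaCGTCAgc

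In Fos the core began 66 bases before the start, and it began 106 bases before it in Junb, 60 in Fosb and 7 in Atf3. The second run of capitals in Fos is a TATA box, TATAAA, which began 33 bases before the start, and TATAAA or its complement was found in this window in 6.34% of all promoters and in no other of the 7 genes. The full element TGACGTCA (1.24% of all promoters), the AP-1 site TGANTCA (3.41%) and the serum response element (0.749%), searched on both strands, were in none of the 7 windows. The serum response element of Fos is known to lie further upstream, outside the stretch searched. A match of letters is a description of the sequence, and binding was not measured in these embryos.

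Fos was the 1 gene of the 10 that changed between genotypes, and it was lower in TKO. Fos encodes the leucine zipper protein that pairs with Jun proteins to form AP-1, a transcription factor of growth and stress responses. Its 5 TKO arrays read 6.54, 6.73, 6.61, 6.80 and 6.82, against 7.10, 7.41, 7.23, 7.36 and 6.69 on the 5 WT arrays. Every TKO array lay below 4 of the 5 WT arrays, and WT 5, at 6.69, lay inside the TKO range, so the genotypes overlapped. The means were 6.70 ± 0.12 in TKO and 7.16 ± 0.29 in WT (SD, n = 5 each). With sex in the model Fos fell by 0.53 on the log2 scale, which is 1.44-fold lower (95% interval -0.82 to -0.23, limma adjusted p = 0.0423 over 16635 genes). Without a sex term the exact permutation test of the means gave p = 0.0317 (two-sided).

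By sex the groups were small. Among females the 2 TKO arrays read 6.54 and 6.61 and the 4 WT arrays 6.69 to 7.41, and in a fit of the females alone the change was -0.57 and did not pass (limma adjusted p = 0.245). Among males the 3 TKO arrays read 6.73 to 6.82 and the 1 WT array 7.23, which allows no test. The size of the change was steadier than its call. When each array was left out in turn it stayed between -0.61 and -0.47, but the adjusted p was above 0.05 in 9 of these 10 fits, and of the 10 fits only that without WT 5 kept the call (change -0.61, limma adjusted p = 0.00428). The adjusted p was as high as 0.151, without WT 3. Over all 24 alternatives the unadjusted p of Fos was at most 0.019 and the adjusted p ran from 0.00428 to 0.245.

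**Figure D1:**
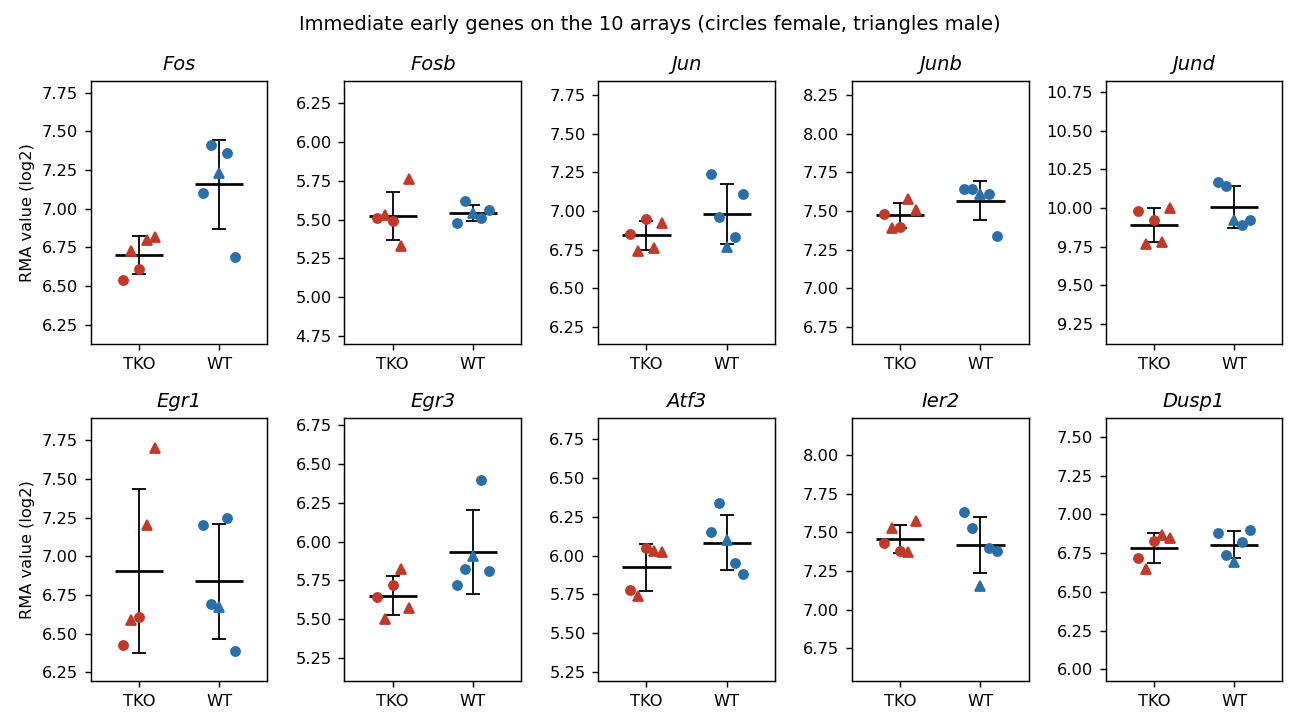
RMA values (log2) of the 10 immediate early genes on each array, TKO left and WT right in every panel, with females as circles and males as triangles; the bar is the mean and the whisker the SD (n = 5), and all panels span the same range of log2 values. For Fos the TKO arrays lie between 6.54 and 6.82 and 4 of 5 WT arrays lie above them, while Egr1 is spread from 6.43 to 7.70 in TKO and from 6.39 to 7.25 in WT.

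Of the 10 genes, 1 fell, none rose and 9 did not pass (limma, Benjamini-Hochberg over all genes). Across all 16635 genes tested 5.51% passed in either direction and 1.12% passed as lower in TKO, so 1 call among 10 genes is a small count to set against this background. All 10 genes passed the filter on dim genes. The 10 genes included 0 whose arrays did not overlap between genotypes, where 7.60% of all genes had none overlapping in either direction and 2.07% had every TKO array below every WT array. The change was below 0 for 9 of the 10 and above 0 for Ier2, with a median of -0.072. Over all genes the median was -0.001 and 50.2% of changes were below 0.

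No other AP-1 subunit of the set passed. Fosb, a close relative of Fos that can take its place in AP-1, read 5.51, 5.53, 5.49, 5.33 and 5.76 in TKO and 5.48, 5.62, 5.54, 5.51 and 5.56 in WT. The 2 ranges lie on top of each other, with the TKO arrays spread the wider. The change was -0.03 (95% interval -0.24 to 0.18, limma adjusted p = 0.893). This interval does not hold the Fos estimate of -0.53, but its lower end meets the Fos interval, -0.82 to -0.23. Fosb was also dim, its mean being at percentile 21.7 of all genes tested.

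Jun, Junb and Jund are the AP-1 subunits that bind DNA with Fos. Jun read 6.85, 6.74, 6.95, 6.76 and 6.92 in TKO and 7.24, 6.96, 6.77, 6.83 and 7.11 in WT. The highest values were those of WT 1 and WT 5, both female, and the WT male was among the lowest. With sex in the model the change was -0.07 (95% interval -0.28 to 0.14, limma adjusted p = 0.742), and without a sex term it was -0.14.

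Junb, a Jun protein that is often found to restrain Jun, read 7.48, 7.39, 7.40, 7.58 and 7.51 in TKO and 7.64, 7.64, 7.61, 7.61 and 7.34 in WT. As for Fos, 4 WT arrays lay above every TKO array and WT 5 lay below, here below all TKO arrays. The change was -0.12 (95% interval -0.30 to 0.07, limma adjusted p = 0.476).

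Jund, the Jun family member that is transcribed steadily in most cells, had 2 probe sets. The brighter read 9.77 to 10.00 in TKO and 9.89 to 10.17 in WT, with a change of -0.07 (limma adjusted p = 0.654). The dimmer read 8.38 to 8.58 in TKO and 8.53 to 8.69 in WT, with a change of -0.08 (limma adjusted p = 0.667 in a fit over all probe sets). Both were slightly lower in TKO and in both the genotypes overlapped.

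The zinc finger factor genes Egr1 and Egr3 differed in how they varied. Egr1, a factor induced by the same kinases as Fos, read 6.43, 6.59, 6.61, 7.20 and 7.70 in TKO and 7.20, 6.69, 6.67, 7.25 and 6.39 in WT. In both genotypes some embryos lay between 6.39 and 6.69 and others at 7.20 or above, with none between, and the highest and lowest values of the 10 arrays, 7.70 in TKO 5 and 6.39 in WT 5, belonged to different genotypes. The within-genotype SD of Egr1 was 0.46, at percentile 97.8 of all genes tested, whose median SD was 0.152. The change was -0.06 (limma adjusted p = 0.928), and its 95% interval, from -0.62 to 0.50, is wide enough to hold a fall as large as that of Fos. Its sign turned in 7 of 24 alternatives, which ran from -0.37 among females to 0.26 with the score of non-epithelial markers in the model.

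Egr3, which in mice is needed for muscle spindles and has roles in lymphocytes, read 5.64, 5.50, 5.72, 5.82 and 5.57 in TKO and 5.72, 5.82, 5.91, 6.40 and 5.81 in WT. After Fos it had the change farthest from 0 of the 10, -0.27 (95% interval -0.57 to 0.04, limma adjusted p = 0.302). Of the 5 TKO arrays 4 lay below the lowest WT array, WT 1, but TKO 3 and WT 1 both round to 5.72. A single embryo, WT 4 at 6.40, stood above the others, and without it the change was -0.17. The exact permutation test of the Egr3 means gave p = 0.0397, the other of the 10 genes with a value below 0.05 besides Fos. These are unadjusted values from 10 such tests.

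**Figure D2:**
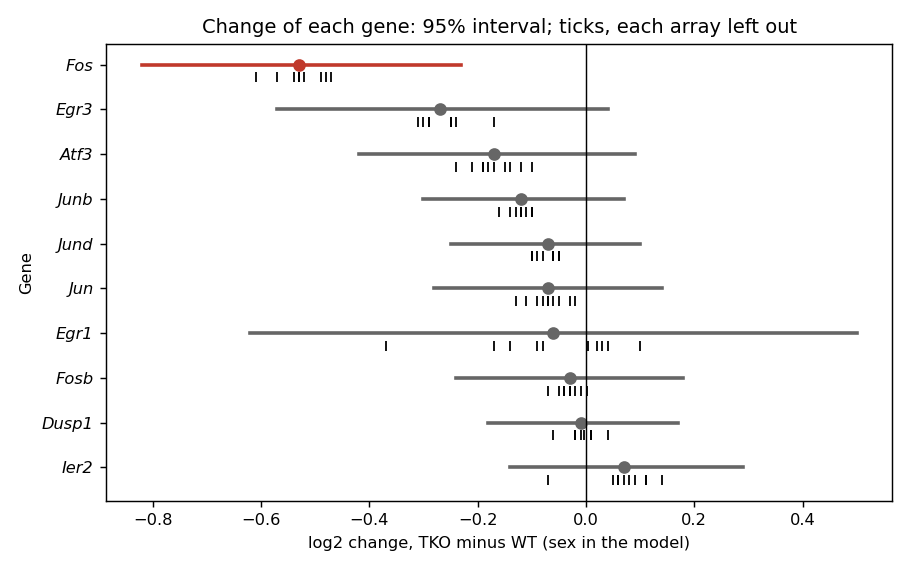
Change of each immediate early gene, TKO minus WT, on the log2 scale with sex in the model; the point is the estimate, the line its 95% interval and the black ticks the estimates with each array left out in turn. The interval of Fos, -0.82 to -0.23, is the only 1 of the 10 that does not span 0, and the ticks of Egr1 lie on both sides of 0.

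Atf3, a stress-induced repressor of the ATF family that can dimerise with Jun proteins, read 5.78, 5.74, 6.05, 6.03 and 6.02 in TKO and 6.15, 6.34, 6.10, 5.95 and 5.88 in WT. Of the WT arrays 3 lay above all TKO arrays and of the TKO arrays 2 lay below all WT arrays. Its change was -0.17 (95% interval -0.42 to 0.09, limma adjusted p = 0.458).

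Ier2, a nuclear protein first found as an early response to growth factors, read 7.43, 7.53, 7.38, 7.37 and 7.57 in TKO and 7.63, 7.53, 7.15, 7.40 and 7.38 in WT. The lowest value was that of WT 3, and the WT range enclosed the TKO range. The change was 0.07 (limma adjusted p = 0.728), and it was -0.07 without WT 3.

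Dusp1, a phosphatase that switches off the MAP kinases that induce the others, read 6.72, 6.65, 6.83, 6.87 and 6.85 in TKO and 6.88, 6.74, 6.69, 6.82 and 6.90 in WT. The ranges almost coincided. The change was -0.01 (95% interval -0.18 to 0.17, limma adjusted p = 0.98), and the within-genotype SD was 0.092, at percentile 11.8 of all genes tested. Of the 10 genes Dusp1 had the narrowest spread and Egr1 the widest. No sex difference passed for any of the 10 (limma adjusted p from 0.728 for Jun to 0.982 for Atf3), and the male minus female estimates of Fos and Egr1 were 0.16 and 0.30.

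The 10 genes did not move as 1 block from embryo to embryo. The mean of their values, each centred on its own average, lay between -0.157 and 0.097 in TKO embryos and between -0.076 and 0.148 in WT embryos, so the genotypes overlapped. Of the 45 pairs of genes, 34 had a Pearson r above 0 after centring within genotype, the median r was 0.17, and 6 pairs reached 0.6. The 6 were Fos with Junb (0.80), Jun with Jund (0.66), Jun with Dusp1 (0.64), Jund with Ier2 (0.63), Jun with Ier2 (0.62) and Junb with Atf3 (0.60). Junb was in the pairs of both Fos and Atf3, and Jun in those of Jund, Dusp1 and Ier2, while the r of Fos with Jun was -0.51. These pairs share the same 10 arrays, and are given as a description.

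Fos was also compared with each of the other 9 genes across the 10 embryos. With Junb, Pearson's r was 0.81 (permutation p = 0.00785, adjusted over the 9 relations 0.0706) and Spearman's rho 0.83 (permutation p = 0.00473, adjusted 0.0426). Without WT 2 and WT 4, the arrays farthest from the Fos median, r was 0.76 (permutation p = 0.0278, adjusted 0.25). After centring within genotype r was 0.80 (permutation p = 0.0109, adjusted 0.0978) and rho 0.65 (adjusted permutation p = 0.224). Without TKO 1 and WT 5, the arrays farthest out after centring, r was 0.50 (permutation p = 0.201, adjusted 0.864). Those arrays were picked for extreme Fos values, which narrows the Fos range, so the lower r cannot show what the relation rests on. With each array left out singly, r of the uncentred values stayed between 0.77 and 0.86. These values include the difference between genotypes, and r of the centred values is not given for single arrays left out. WT 5 was the lowest WT array for both genes, and how far the centred r rests on it was not tested.

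With Atf3 r was 0.67 (permutation p = 0.033, adjusted 0.099) and rho 0.60 (adjusted permutation p = 0.165), and with Egr3 r was 0.64 (permutation p = 0.0293, adjusted 0.099) and rho 0.60 (adjusted permutation p = 0.165). Without WT 2 and WT 4 these r were 0.69 for Atf3 and 0.47 for Egr3, and centred within genotype they were 0.54 and 0.35. No relation passed by the adjusted p of Pearson's r, and 1, that with Junb, passed by the adjusted p of Spearman's rho. The r of Fos with the other 6 genes ran from -0.09 for Dusp1 to 0.40 for Jund (adjusted permutation p from 0.545 to 0.921). Of these, Egr1 had an r of 0.29 but a rho of 0.66 (permutation p = 0.0419, adjusted 0.165). Centred within genotype, r of Fos with Egr1 was 0.54 (adjusted permutation p = 0.295) and rho 0.73 (permutation p = 0.0208, adjusted 0.188). Without TKO 1 and WT 5 this centred r was 0.25.

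**Figure D3:**
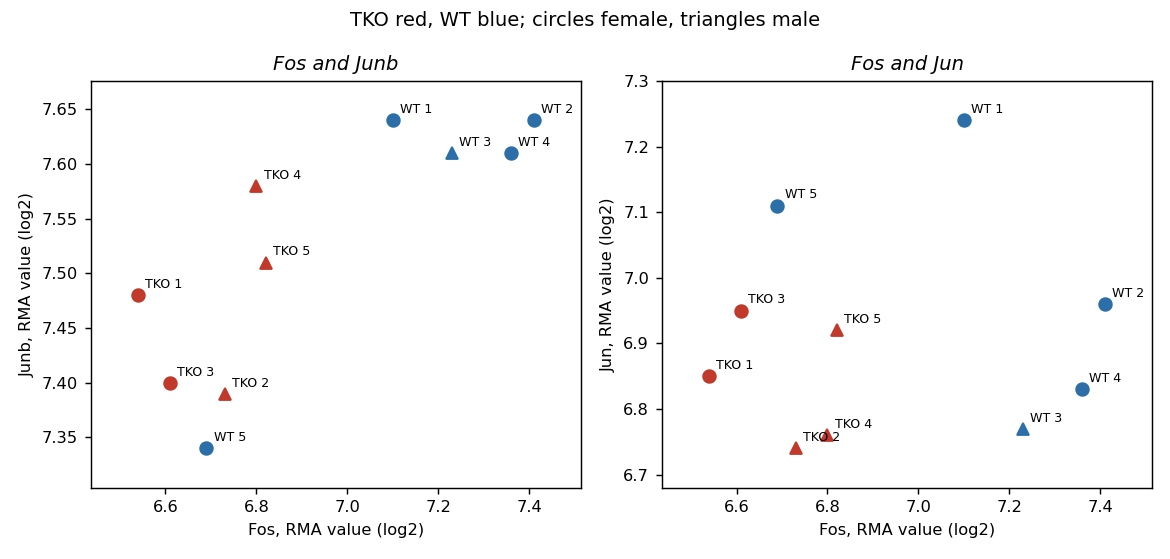
Fos against Junb (left) and Fos against Jun (right), RMA values (log2) of the 10 arrays, with TKO in red, WT in blue, females as circles and males as triangles. In the left panel 4 WT embryos share high Fos and high Junb, and WT 5, at 6.69 for Fos and 7.34 for Junb, lies with the TKO embryos; in the right panel no common direction is seen (r = 0.04).

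Outside the 10, the genes whose values followed the mean of the members most closely within genotypes were Dlgap4 (r = 0.94), Cwh43 (0.93), 2300002M23Rik (0.92), Hoxa3 (0.92), Atp4a (0.92), Mfsd13a (0.91), Hspb1, a small heat shock protein (0.91), and Mymx, a muscle fusion peptide gene (0.90). These are the highest of 16625 values of r, each over 10 arrays, and are given as a description. None of the 8 changed between genotypes (limma adjusted p from 0.168 to 0.95).

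Further genes of the immediate early response were read from lists. Of 24 tested transcription factors of the response beside the 10, 1 fell, none rose and 23 did not pass, and the median change was -0.052. The gene that fell was Csrnp1, a nuclear protein first described as induced by axin. Csrnp1 read 5.85, 6.01, 6.10, 5.83 and 6.12 in TKO and 6.38, 6.76, 6.56, 6.66 and 6.16 in WT, so every WT array lay above every TKO array, with WT 5 again the lowest of the WT arrays. Its change was -0.54 (1.45-fold lower, limma adjusted p = 0.0355). The call was lost when any 1 of 8 arrays was left out (all but TKO 5 and WT 5, with adjusted p up to 0.186). Over all alternatives it was lost in 13 of 24 (limma adjusted p up to 0.256). Maff, a small Maf factor, was at -0.59 (limma adjusted p = 0.0661), the neuronal activity factor gene Npas4 at 0.48 (0.0775) and Id1, an inhibitor of helix-loop-helix factors, at 0.33 (0.0935), and these 3 did not pass.

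Of 46 tested effectors and feedback genes, 2 fell, 1 rose and 43 did not pass, with a median change of -0.075. Sik1, a kinase induced by cyclic AMP that restrains CREB coactivators, read 9.42, 9.66, 9.53, 9.53 and 9.71 in TKO and 10.03, 9.97, 9.82, 9.82 and 9.75 in WT. The WT arrays all lay above the TKO arrays, by a small margin, and the change was -0.33 (1.26-fold lower, limma adjusted p = 0.0355). Gadd45g, a stress-induced regulator of growth arrest, averaged 5.65 ± 0.18 in TKO and 6.26 ± 0.28 in WT (SD, n = 5 each), and its change was -0.48 (limma adjusted p = 0.0446). The WT male, at 5.76, lay inside the TKO range. Each of these 2 calls was lost when any 1 of 8 arrays was left out. For Sik1 the 8 were all but TKO 5 and WT 5 (adjusted p up to 0.137), and for Gadd45g all but TKO 4 and WT 3 (adjusted p up to 0.199). Over all alternatives the call of Sik1 was lost in 13 of 24 and that of Gadd45g in 14 of 23.

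The gene that rose was Ifrd1, a transcriptional coregulator first found as induced by nerve growth factor and by the phorbol ester TPA. Ifrd1 read 7.41, 7.42, 7.43, 7.43 and 7.23 in TKO and 6.65, 6.91, 6.82, 6.80 and 6.95 in WT. The genotypes were well separated, and the change was 0.58 (1.49-fold higher, limma adjusted p = 0.00335), a call that held with each array left out and was lost in 1 of 24 alternatives, among females only (adjusted p = 0.0788). Ppp1r15a, a phosphatase subunit of the stress response, was at -0.33 and did not pass (limma adjusted p = 0.084).

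None of 32 tested AP-1 partners and upstream regulators passed in limma with Benjamini-Hochberg adjustment, and the median change was -0.049. The 4 with the smallest p, each with an unadjusted p below 0.05, were Nras (-0.25, limma adjusted p = 0.0512), the MAP kinase kinase gene Map2k1 (0.26, 0.149), the stress response factor gene Atf4 (0.24, 0.186) and the AP-1 family gene Batf (-0.41, 0.204). A further 9 of the 41 listed genes of this group were not analysed here.

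Of 17 tested heat shock and stress genes, 1 rose and 16 did not pass, with a median change of -0.062. The gene that rose was Ddit3, which encodes CHOP, a transcription factor of the endoplasmic reticulum and amino acid stress responses and known as a target of ATF4. Ddit3 read 8.65, 8.45, 8.41, 8.45 and 8.42 in TKO and 7.99, 8.04, 7.81, 7.83 and 8.33 in WT, so that every TKO array lay above the WT arrays, and the change was 0.53 (1.45-fold higher, limma adjusted p = 0.0105). Its call was lost without TKO 1 or without WT 3 (adjusted p up to 0.107). It was lost in 3 of 24 alternatives, the other being the fit among females only (limma adjusted p = 0.193). Ddit4 (-0.35, limma adjusted p = 0.104), Hspb1 (-0.28, 0.267) and the mitochondrial chaperonin gene Hspd1 (-0.12, 0.395) did not pass. Over these 4 lists together, 5 of 119 tested genes changed, 4.2%, beside 5.51% of all genes.

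**Figure D4:**
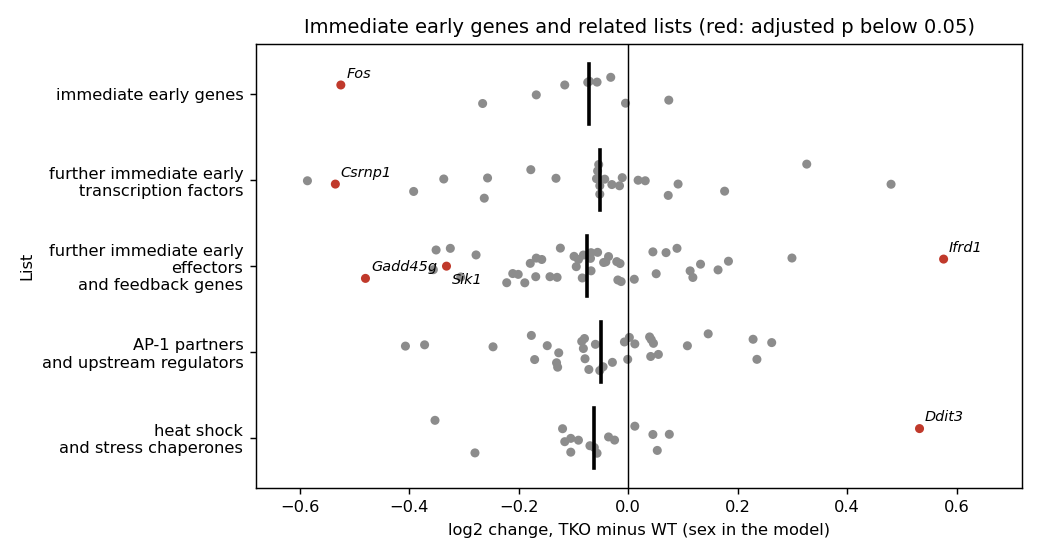
Change of each tested gene, TKO minus WT, on the log2 scale with sex in the model, for the immediate early genes (top) and the 4 related lists; red points passed an adjusted p of 0.05 and carry their names, and the black bar is the median of each list. The medians lie between -0.075 and -0.049, and the 6 red points are Fos, Csrnp1, Gadd45g and Sik1 below 0 and Ifrd1 and Ddit3 above it.

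Markers of other cells in the capture were read from the same fit, with sex in the model, where WT 3 is the only WT male. Over all genes 5.51% passed in that fit. In bulk RNA fewer cells of a type cannot be told apart from less RNA per cell. Of 12 mesenchyme genes all 12 had a change below 0 and 1 fell (Col3a1, -0.48), and of 10 skeletal muscle genes all 10 had a change below 0 and 1 fell (Tnnt3, -1.01). Of 8 endothelial genes tested all 8 had a change below 0 and 1 fell (Tie1, -0.39). The median change was -0.391 for mesenchyme, -0.586 for muscle and -0.303 for endothelium. None of 9 leukocyte, 7 cartilage, 8 neuronal and glial or 2 erythroid genes passed. A change below 0 was found for 8 of the leukocyte genes (median -0.208), 3 of the cartilage genes (median 0.02), 3 of the neuronal and glial genes (median 0.063) and 1 of the erythroid genes (median -0.051). Each of the calls of Col3a1, Tnnt3 and Tie1 was lost without WT 3. That of Col3a1 was also lost without TKO 1 or TKO 3, that of Tnnt3 without any of TKO 1 to TKO 4, and that of Tie1 without any of TKO 1, TKO 3, TKO 4, TKO 5, WT 1 and WT 4. Over 24 alternatives the change of Col3a1 ran from -0.52 to -0.24 (limma adjusted p up to 0.5). Without a model Col3a1 averaged 7.57 ± 0.38 in TKO and 7.80 ± 0.29 in WT (SD, n = 5 each). The mesenchyme score lay between -0.84 and 0.58 in TKO and between -0.53 and 0.45 in WT, and the muscle score between -0.61 and 0.28 in TKO and between -0.47 and 0.93 in WT. The endothelial score lay between -0.40 and 0.23 in TKO and between -0.35 and 0.41 in WT, and the leukocyte score between -0.42 and 0.40 in TKO and between -0.54 and 0.25 in WT. The cartilage score lay between -0.16 and 0.42 in TKO and between -0.21 and 0.15 in WT, and the erythroid score between -0.31 and 0.51 in TKO and between -0.22 and 0.31 in WT. The neuronal and glial score lay between -0.78 and 0.77 in TKO and between -0.57 and 1.23 in WT. WT 5, the WT embryo with the lowest Fos, Egr1 and Junb, had the 1.23. The next highest WT score, 0.87, was that of WT 1, which read 7.10 for Fos, 7.20 for Egr1 and 7.64 for Junb. TKO 1 had the highest TKO score, 0.77, and the lowest Fos (6.54) and Egr1 (6.43) of the TKO arrays. Its Junb, 7.48, was the TKO median. A link of these genes to the score was not tested.

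With the mean of the 7 non-epithelial scores as a covariate the change of Fos was -0.62 (limma adjusted p = 0.0662), farther from 0 than without it but no longer past the threshold. In the same fit Csrnp1 was at -0.67 (limma adjusted p = 0.0379), Ifrd1 at 0.51 (0.0259), Ddit3 at 0.55 (0.0439), Sik1 at -0.35 (0.0911) and Gadd45g at -0.39 (0.193). The spread of each array's values about the gene medians, a sign of RNA quality, had an interquartile range of 0.166 to 0.229 in TKO and 0.185 to 0.215 in WT. With it as a covariate the change of Fos was -0.52 (limma adjusted p = 0.0639). The part of the time to fixation in these values was not tested.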

How the data were processed

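The deposited table holds log2 values for 41345 probe sets on 10 arrays. Per the labels and the submitters' processing notes, the authors made these log2 values with RMA in the Affymetrix Expression Console; its version is unstated there, and the values (1.50 to 13.67) show the log2 scale. No detection calls or scanner files were used here. The platform annotation gave 1 symbol to 23521 probe sets, several to 1814 and none to 16010, which stay unnamed here. The brightest probe set by mean stood for each of 22180 genes, and a filter at the 25th percentile of these means (4.58) left 16635 genes.

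The comparison used limma 3.58.1 under R 4.3.3 (genotype and labelled sex, intensity trend, two-sided, Benjamini-Hochberg over all 16635 genes, threshold 0.05). Exact permutation tests and 100000-resample permutation tests of correlations used Python 3.11.15 and scipy 1.17.1, and figures matplotlib 3.10.9. The fit was tested on simulated arrays. Sequences came from RefSeq tables (GRCm38.p6); Egr1, Egr3 and Ier2 have no promoter entry there. Gene coordinates are not printed, since the sources do not name the array's build.

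The members and lists were chosen with earlier results of these data known. Named genes were all 10 members and the 8 genes most like the members' mean. From each related list they were the members past the threshold or, where fewer than 4 passed, those with the smallest p up to 4. Marker lists are described by their counts, their scores and the genes that passed, with Grhl2 and Foxj1 of the epithelial list besides. Of 136 genes on the 4 related lists, 119 were tested, 2 were below the filter and 15 had no probe set with a single gene. Deviations of same-numbered arrays had correlations from -0.13 to 0.38 over the 5 numbers. Such values cannot show whether the numbers pair embryos, since litters are not recorded. The main fit treated the arrays as unpaired. Alternatives were no sex term, a replicate block, other filters, scalings, variance models, array weights, array quality or non-epithelial score as a covariate, other uses of the probe sets, females only, and each array left out.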

Additional observations from a re-analysis of the deposited data

Results flagged for a closer look

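In the 52 groups of 5 arrays checked, those of the 10 members and of the named genes of the related lists, 8 held an array set apart from the others by a gap of most of the group's range, where chance gives about 1 in 20. Among the members, Junb in WT 5 was 7.34 while the other WT arrays lay between 7.61 and 7.64, and Egr3 in WT 4 was 6.40 while the others lay between 5.72 and 5.91. Without WT 5 the change of Junb was -0.16, and without WT 4 that of Egr3 was -0.17.

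Among the listed genes, Ddit3 in TKO 1 was 8.65 (others 8.41 to 8.45), Id1 in TKO 1 was 8.06 (others 8.20 to 8.24) and Ifrd1 in TKO 5 was 7.23 (others 7.41 to 7.43). In WT, Gadd45g in WT 3 was 5.76 (others 6.28 to 6.43), Hspd1 in WT 4 was 9.23 (others 9.44 to 9.47) and Ppp1r15a in WT 1 was 7.56 (others 7.10 to 7.23). The cause of these gaps was not tested.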

How the results depend on the processing

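The change of Fos kept its sign in all 24 alternatives (-0.62 to -0.46) and its call in 9 of them. The count of immediate early genes changed, 1 in the main setting, was 0 with no filter, among females only, with the replicate block, with array quality or non-epithelial score added, and with all probe sets, and 0 to 1 when single arrays were left out. The replicate block gave Fos -0.51 (limma adjusted p = 0.0628), and in that fit 1053 genes passed, against 916 in the main fit. Over all genes 56 passed among females only, 443 with the non-epithelial score, 555 with all probe sets, and 210 (without WT 3) to 1284 (without WT 5) with single arrays left out. Of the 119 further listed genes, 5 in the main setting, 0 passed among females only, 8 without a sex term, 3 with the non-epithelial score, and 1 to 8 with single arrays left out; with all probe sets kept, 2 of the 132 probe sets of these lists passed. The number of members with an exact permutation p below 0.05, 2 with all arrays, was 1 to 3 with 1 array left out, an alternative added after the data were seen. By Pearson's r, 0 of 9 relations of Fos passed after adjustment in any setting, while 3 had an unadjusted p below 0.05 with all arrays. Signs turned for members that did not pass: Egr1 was 0.06 without a sex term, 0.26 with the non-epithelial score, and -0.37 to 0.10 with single arrays left out (0.10, 0.02 and 0.0029 without TKO 1, 2 and 3, 0.03 and 0.04 without WT 1 and 4). Dusp1 was 0.08 with that score, -0.06 to 0.04 with single arrays left out, and 0.04, 0.01, 0.01 and 0.01 without TKO 1, TKO 2, WT 1 and WT 5; Fosb was 0.02 when quantile normalised again and 0.0012 without TKO 4; and Ier2 was -0.07 to 0.14 with single arrays left out and -0.07 among females and without WT 3, which with sex in the model is the same contrast. The causes were not tested.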
